A study of Mus musculus with 3 samples.

Results

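The regions described here are the wide YY1 peaks that were called in both sorts of cardiac progenitor cells. A region was taken when the replicate 2 call lay on one of the 19 autosomes, was 150 bp or more wide, and overlapped a replicate 1 call by at least 1 bp. There were 440 such regions among the 115109 calls of replicate 2, and together they held 490 of the 3691 calls of replicate 1. The rule used the replicate 2 width and the fact of an overlap. Those are therefore descriptions of how the set was made. The scores, the replicate 1 widths and the placement of the calls did not enter the rule directly. Choosing on replicate 2 width and on overlap still bears on them.

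Chromatin immunoprecipitation and sequencing (ChIP-seq) with an anti-YY1 antibody was applied to 2 independently sorted samples, and an input sample was also made. The cells came from C57BL/6 mouse embryonic stem cells that carried a transgene in which Nkx2.5 drives green fluorescent protein. They were differentiated as embryoid bodies for 6 days, and the eGFP-positive cells were purified by flow sorting and are labelled as cardiac progenitor cells (CPCs). Both ChIP samples share line, day, sort gate and antibody lot, so there is no second condition, and the only contrast is between the 2 sorts. The sorted cells are defined by this reporter, and the number of stem cell clones was not stated in the sources used here. The files hold peak calls alone, so the identity of the cells was not checked by marker genes, and the input was not analysed here.

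YY1, a protein with zinc fingers, regulates transcription in both directions, as an activator or a repressor, depending on the partners it recruits. It binds a short DNA motif, frequently near transcription start sites, and is known to bring promoters and enhancers together by pairing with itself. In the mouse it is required for early embryonic development, and it has been studied in heart formation alongside cardiac factors such as Nkx2-5. A peak is a stretch of the genome where ChIP fragments pile up. Its width depends on fragment length, on how many sites lie close together and on how far the pile-up stays above the caller's threshold.

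Each call carries a score from MACS, the peak caller, in which a higher value marks a stronger call within its own list. It is the authors' value, it was not compared between lists as a level, and the sources used here do not state its formula. Coordinates are those of the mm9 build, counted from 1, as called in replicate 2 unless stated. No gene is named for a region and no sequence is printed, because no mm9 annotation or sequence was used here. With a single list per sample no test over samples can be made. Regions are not replicates, so every comparison below is a description, with 95% exact (Clopper-Pearson) binomial intervals that cover counting error only. The read depth behind the calls is unknown.

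The wide shared peaks were strong calls in replicate 2 and mostly ordinary ones in replicate 1. In replicate 2 their scores ran from 53.73 to 3171.31 with a median of 986, against 129 over all 108971 autosomal calls. Choosing on replicate 2 width favours higher scores there, and the 5525 wide calls of replicate 2 alone had a median of 354. In replicate 1, where each peak was represented by the call that overlapped it most, the scores ran from 50.3 to 3149.52 with a median of 78.2. That is close to the 77.5 of all 3438 autosomal replicate 1 calls. The 971 narrow shared peaks, under 150 bp in replicate 2, had the lower replicate 2 median, 285, but the higher replicate 1 median, 94.55. The replicate 1 median of the wide peaks was 0.827 times that of the narrow ones. With the higher-scoring 50% of both lists alone the ratio was 0.959, with an interval of 0.918 to 1.05 that takes in equal medians. This interval came from the order statistics of the wide median, with the narrow median held fixed.

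The replicate 1 scores of the wide peaks nevertheless had a long upper tail, while those of the narrow peaks ended at 394.42. A replicate 1 score of 200 or more was reached by 40 of the 440 wide peaks (9.09%, 6.57 to 12.2%), where 2.24% of all autosomal replicate 1 calls reached it. Among the narrow shared peaks 21 of 971 did (2.16%, 1.34 to 3.29%). The border at 200 was chosen after the values were seen. At 100 or more the order was the reverse, with 117 wide peaks (26.6%, 22.5 to 31.0%) and 373 narrow ones (38.4%, 35.3 to 41.6%). At 500 or more the counts were 19 wide peaks (4.32%, against 0.582% of all autosomal replicate 1 calls) and 0 narrow peaks, a count that leaves room for a share of up to 0.379%. Of the 77 autosomal replicate 1 calls that scored 200 or more, 45 lay in a wide shared peak, 21 in a narrow shared peak and 11 in no replicate 2 call. All 20 autosomal replicate 1 calls of 500 or more lay in wide shared peaks (lower bound 83.2%).

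**Figure D1:**
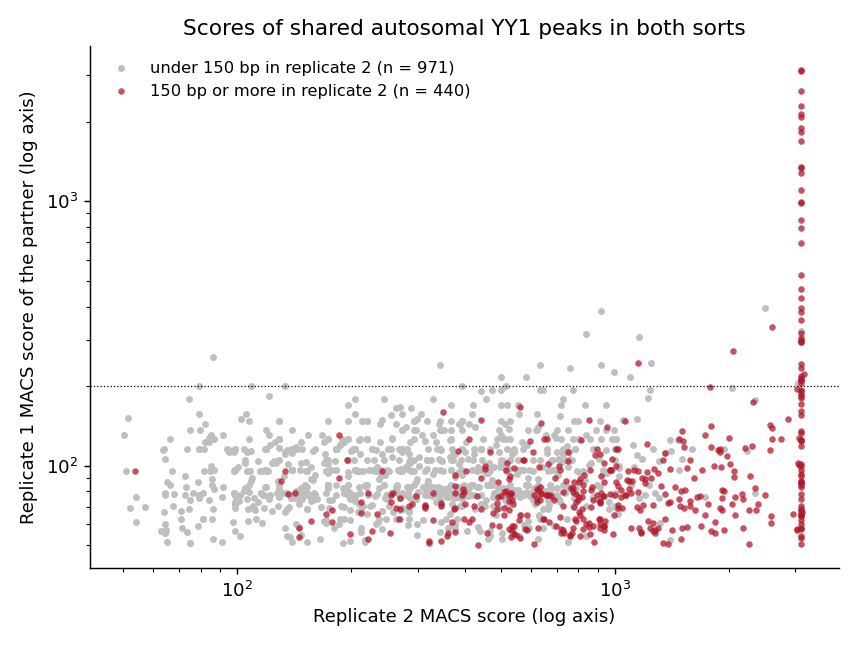
Replicate 1 score of the partner call (vertical, log axis) against replicate 2 score (horizontal, log axis) for each shared autosomal peak; red points are the 440 wide peaks, grey points the 971 narrow ones, and the dotted line marks a replicate 1 score of 200. The column of red points at the right is the 77 wide peaks tied at a replicate 2 score of 3100, which span replicate 1 scores from 50.4 to 3149.52.

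The top of the replicate 2 list was made up largely of these regions, and its tied score hid a wide range in replicate 1. Of the 102 autosomal replicate 2 calls with a score of exactly 3100, 77 were wide shared peaks. This was 17.5% of the 440, where 0.0936% of all autosomal replicate 2 calls had that score, and another 2 wide shared peaks scored above it. Choosing on replicate 2 width favours such scores, because 107 wide autosomal calls and 1 narrow one scored 3100 or more. Among those 107 wide calls, 79 were shared (73.8%, 64.4 to 81.9%). Replicate 1 scores of the 77 had a median of 186 and quartiles of 86.4 and 467. In 36 of them the replicate 1 score was 200 or more and in 41 it was lower, with a lowest value of 50.4. Outside the tie the replicate 1 scores of the other 363 peaks reached 334 at most, with a median of 76.4.

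Over the 440 peaks Spearman's rho between the scores was 0.38 and Pearson's r was 0.39. This describes regions from the same pair of libraries, and no p-value is attached. Without the 77 tied peaks rho was 0.20, and without the 40 peaks of replicate 1 score 200 or more it was 0.21. In bins of replicate 2 score the replicate 1 median of the wide peaks was 78.2 under 200 (n = 15), 70.4 at 200 to 400 (n = 44), 74.5 at 400 to 800 (n = 108) and 77.3 at 800 to 1600 (n = 130). Above that, it reached 86.1 at 1600 to 3100 (n = 64) and 186 from 3100 upward (n = 79). Narrow shared peaks had higher replicate 1 medians in the same bins, 84.5 under 200, 95.3 at 200 to 400, 95.3 at 400 to 800 and 105 at 800 to 1600.

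Replicate 1 scores also differed with the width of the replicate 1 call. These widths were not split by replicate 2 score, so their part in that gap was not tested. In replicate 1 the narrowest calls had high scores: among calls under 60 bp the median was 95.3 for the 60 inside wide shared peaks, 111 for the 489 inside narrow shared peaks and 105 for the 298 autosomal calls in neither. From 60 to 80 bp the medians were 77.55, 78.6 and 76.5, and from 80 to 100 bp they were 72.0, 75.3 and 71.6. The medians of the 3 sets were thus close from 60 to 100 bp. From 100 to 150 bp they were 76.5, 77.1 and 69.55. From 150 to 200 bp the 48 calls inside wide shared peaks had a median of 125 and the 57 in neither had 96.5. Only 1 call of that width was counted inside a narrow shared peak, with a score of 58.1. Calls that met both a narrow and a wide shared peak were counted with the wide ones. A 191 bp call on chromosome 12, with a score of 78.2, was such a case. At 200 bp or more the 48 replicate 1 calls inside wide shared peaks had a median of 217, and the 44 autosomal calls outside any shared peak had one of 121.

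The 15 regions with the highest replicate 1 scores were all tied at 3100 in replicate 2, and most were called with nearly the same borders in both sorts. The strongest, chr17:31568357-31569415, was 1059 bp wide in replicate 2 and 1009 bp in replicate 1, where it scored 3149.52. The replicate 1 call covered 95.3% of it, with midpoints 18 bp apart. At chr19:32609949-32610266 the widths were 318 and 297 bp, the replicate 1 score was 3100 and the midpoints lay 0.5 bp apart. The borders of these calls therefore matched to within a small part of their width.

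The same held for several of the regions that followed in rank. At chr12:15846610-15846970 the widths were 361 and 365 bp, the replicate 1 score 2606 and the covered share 99.7%. The region chr15:99767009-99767544 had widths of 536 and 503 bp, a replicate 1 score of 2135 and 93.8% covered. On chromosome 3, chr3:68002839-68003518 started at the same base in both lists, with widths of 680 and 640 bp and a replicate 1 score of 2078. In each of these 3 regions the replicate 1 call took up almost all of the replicate 2 call.

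Narrower regions were among the strongest as well. At chr14:121828485-121828702 the replicate 1 call was the wider, 257 against 218 bp, with a score of 1898. At chr13:45408625-45408889 the widths were 265 and 256 bp, the replicate 1 score was 1690 and the midpoints were 1.5 bp apart. The region chr19:34967825-34968005 was 181 bp wide in replicate 2 and 160 bp in replicate 1, and scored 1345 there. A width far above the minimum was thus not shared by all of the strongest regions.

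Of the others, chr1:14008768-14009267 scored 1828 in replicate 1 with 97.6% covered, and chr5:148525669-148526229 scored 1284 with 98.0% covered. The region chr18:81861375-81861595 scored 1334 with 84.6% covered. At chr1:40663178-40663818 the replicate 1 score was 986 and 91.6% was covered. Lower coverage was seen in 3 of the 15. At chr17:35008030-35008308, with a replicate 1 score of 2302, 72.8% was covered. At chr11:112200541-112201466, with 1099.83, it was 56.5%, by 2 replicate 1 calls. At chr4:129879365-129885970, with 998, it was 44.4%, by 11 replicate 1 calls.

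A peak that was wide in replicate 2 was usually not wide in replicate 1. The partner was 150 bp or more in 88 of the 440 regions (20%, 16.4 to 24.05%), where 5.76% of all autosomal replicate 1 calls were that wide. It was narrower than the replicate 2 call in 436 of 440 (99.1%) and, among the narrow shared peaks, in 800 of 971 (82.4%). Median widths were 267.5 bp in replicate 2 (quartiles 205 and 416.5 bp) and 97 bp in replicate 1 (77 and 133 bp). Partners of the narrow shared peaks had a median of 59 bp, so the partners of the wide peaks were 1.64 times as wide at the median. A wide call has more room to meet a wide partner, and choosing on replicate 2 width also favours partners narrower than it. The share of partners of 150 bp or more was 9.64% without the 77 tied peaks and 13% without the 40 peaks of replicate 1 score 200 or more.

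The 40 peaks with a replicate 1 score of 200 or more and the other 400 differed in how much of the region replicate 1 took up. In the 40, replicate 1 calls covered a median of 81.1% of the replicate 2 call (quartiles 59.8 and 93.9%), the partner had a median width of 277.5 bp and the midpoints lay 23.5 bp apart. In the 400, the median covered share was 35.2% (24.2 and 50.1%), the partner width 94 bp and the distance 46.5 bp. Replicate 2 widths had medians of 397 and 262.5 bp. Among the 77 peaks tied at 3100 the replicate 2 widths were close, with medians of 500.5 bp in the 36 of replicate 1 score 200 or more and 550 bp in the other 41. The covered shares there were 85.6% and 29.5%. Both sets are ranges along a continuous score, and the border at 200 was chosen after the values were seen. Over all 440 peaks the replicate 1 score and the covered share had a Spearman's rho of 0.22 and a Pearson's r of 0.45.

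**Figure D2:**
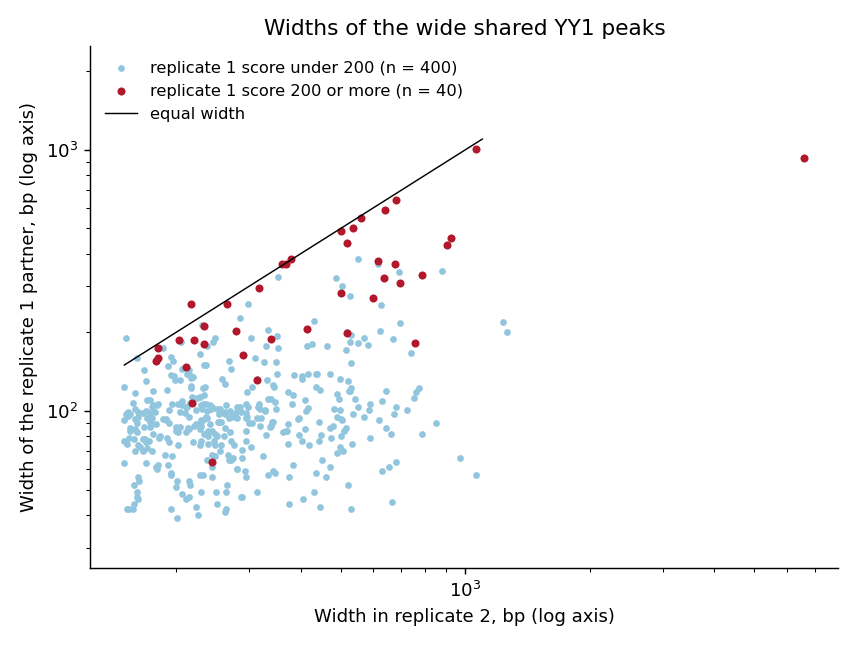
Width of the replicate 1 partner (vertical, log axis, bp) against replicate 2 width (horizontal, log axis, bp) for the 440 wide shared peaks; red marks the 40 with a replicate 1 score of 200 or more, and the line marks equal width. Most blue points lie near 100 bp in replicate 1 whatever the replicate 2 width, while many red points lie along the line.

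Replicate 1 width differed little between classes of replicate 2 width, apart from the widest. Partners had a median of 90 bp in regions 150 to 200 bp wide in replicate 2 (n = 99), 94 bp at 200 to 300 bp (n = 160), 102 bp at 300 to 500 bp (n = 102) and 153 bp from 500 bp upward (n = 79). Replicate 1 scores in the same classes had medians of 78.2, 78.0, 73.4 and 89.75. Spearman's rho over the 440 was 0.29 for the widths and 0.02 for replicate 1 score against replicate 2 width. Replicate 2 score and replicate 2 width, which belong to the same call, had a rho of 0.57.

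The widest regions show both kinds of agreement. The widest, chr4:129879365-129885970, was 6606 bp in replicate 2, and its largest replicate 1 call was 934 bp. The 1265 bp region chr11:6548670-6549934 scored 3100 in replicate 2 but only 67.97 in replicate 1, where 2 calls covered 28.3% of it. The 1233 bp region chr6:116606162-116607394, also at 3100, scored 99.89 in replicate 1 and was 17.8% covered. Among autosomal replicate 1 calls, with a median of 77.5 and an upper quartile of 96.4, the first of these scores lay below the median. The second, 99.89, lay above the upper quartile.

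At chr14:31278277-31279340, 1064 bp wide with a replicate 2 score of 3055, the replicate 1 call was 57 bp, scored 102 and covered 5.36%, the lowest share among the 440. At chr5:124305040-124306012, 973 bp and 3100, it was 66 bp, scored 84.5 and covered 6.78%. At chr7:4706903-4707781, 879 bp and 3100, it was 344 bp, scored 91.8 and covered 39.1%. In these 3 regions replicate 1 calls with scores of 84.5 to 102, above the list median of 77.5, took up less than 40% of the replicate 2 call.

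Only chr16:56456784-56457631 among the 10 widest had a replicate 2 score under 1000. It was 848 bp wide, scored 790 and met a 90 bp replicate 1 call at its high-coordinate edge, 398 bp from midpoint to midpoint, with 8.37% covered. The region chr5:133323170-133324074, 905 bp wide, scored 854 in replicate 1 with 72.6% covered. The other two of the 10, chr17:31568357-31569415 and chr11:112200541-112201466, are among the strongest regions given above.

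Replicate 1 calls mostly lay inside the wide peaks but not always at their middle. The partner was nested within the replicate 2 call in 401 of 440 regions (91.1%, 88.1 to 93.6%), passed its low-coordinate edge in 18 and its high-coordinate edge in 21, and spanned none. In the narrow shared peaks 641 of 971 partners were nested (66.0%, 62.9 to 69.0%), and choosing on replicate 2 width favours nesting in the wide ones. Midpoints of the 2 calls were a median of 45.25 bp apart (quartiles 20 and 83.6 bp). In the narrow shared peaks the distance was 7 bp (2.5 and 13.5 bp). When position was taken as a percent of the replicate 2 width, 130 of 440 replicate 1 midpoints (29.5%, 25.3 to 34.0%) lay in the middle 20% of the peak, where 47.3% of all 1411 shared autosomal peaks had theirs. In the narrow peaks it was 537 of 971 (55.3%, 52.1 to 58.5%). A partner nearly as wide as its peak can only lie near the middle, which narrow peaks, covered to a median of 76.1%, meet more often than wide ones, covered to 37.1%. With a width minimum of 100 bp the median distance was 26.5 bp.

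**Figure D3:**
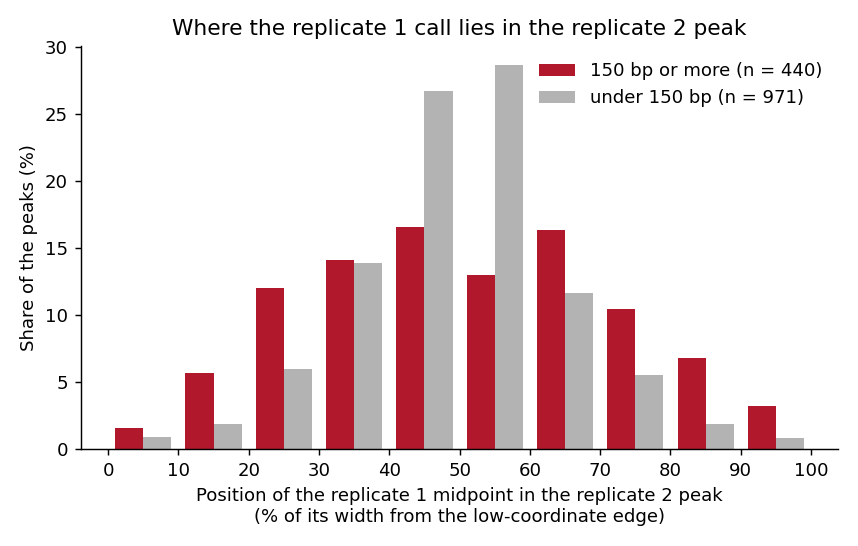
Share of peaks (vertical, %) by the position of the replicate 1 midpoint along the replicate 2 call (horizontal, in steps of 10% of its width) for the 440 wide peaks in red and the 971 narrow peaks in grey; midpoints beyond an edge, 1 wide and 21 narrow, are not drawn. The wide peaks spread from 20 to 80% of the width, and the narrow peaks pile up between 40 and 60%.

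Few wide peaks were split in replicate 1. A single replicate 1 call was held by 404 regions, 2 calls by 30, 3 calls by 5 and 11 calls by 1. Holding 2 or more was therefore seen in 36 of 440 (8.18%, 5.80 to 11.1%), against 2.55% of all shared autosomal peaks. None of the 971 narrow shared peaks held more than 1, and their small width leaves little room for it. Without the 77 tied peaks the share was 3.86%.

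The region with 11 replicate 1 calls, chr4:129879365-129885970, showed a strong core and weaker flanks in replicate 1. Its strongest calls were neighbours, 934 bp wide with a score of 998 and 643 bp wide with a score of 460. The other 9 scored 66.3 to 216. At chr5:133323170-133324074 the 3 calls scored 89.1, 854 and 516, and the strongest lay in the middle. At chr1:186902486-186903037 the scores were 193, 102 and 246 from low to high coordinate.

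The remaining regions with 3 calls that were named by rule had weaker ones. At chr2:169582204-169582617 they scored 91.4, 125 and 78.6 and covered 79.2% of the region. At chr12:12377377-12378020 they scored 58.1, 60.3 and 101.4 and covered 52.2%. The 5 regions named for their number of replicate 1 calls had a replicate 2 score of 3100. A further region with 3 calls, chr19:28048337-28048836, was left out by the order of ties and is named here after its values were seen. It scored 2365 in replicate 2.

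Wide replicate 2 calls were shared more often than calls as a whole, and the share changed with both score and width. Since overlap and width made the set, these shares are given as a description only. The 5965 calls of 150 bp or more were 5.47% of all autosomal replicate 2 calls. Of these 5965, 440 were shared (7.38%, 6.73 to 8.07%), against 1.29% of all autosomal replicate 2 calls. By width the share was 3.65% (2.97 to 4.42%) at 150 to 200 bp, 8.12% (6.95 to 9.42%) at 200 to 300 bp, 10.6% (8.74 to 12.7%) at 300 to 500 bp and 24.8% (20.1 to 29.9%) from 500 bp upward. By replicate 2 score it went from 1.08% (0.603 to 1.77%) of the wide calls under 200 to 73.8% (64.4 to 81.9%) from 3100 upward.

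At a similar score between 800 and 3100, however, the wider calls were shared less often. Between scores of 800 and 1600, 130 of 884 wide calls (14.7%, 12.4 to 17.2%) were shared and 79 of 235 narrow ones (33.6%, 27.6 to 40.05%). Within that score range the share was 33.3% (25.0 to 42.5%) at 100 to 150 bp, 14.4% (8.76 to 21.8%) at 150 to 200 bp, 20.7% (16.0 to 26.0%) at 200 to 300 bp, 12.8% (9.56 to 16.8%) at 300 to 500 bp and 7.69% (3.75 to 13.7%) from 500 bp upward. Between 1600 and 3100 the values were 56.25% (29.9 to 80.2%) at 150 to 200 bp and 20.4% (12.8 to 30.1%) from 500 bp upward. Below a score of 800 the order was less clear. Between 400 and 800 the share was 6.55% (5.40 to 7.85%) for wide calls and 8.59% (7.59 to 9.68%) for narrow ones, and between 200 and 400 it was 2.57% (1.87 to 3.44%) and 1.77% (1.58 to 1.98%).

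**Figure D4:**
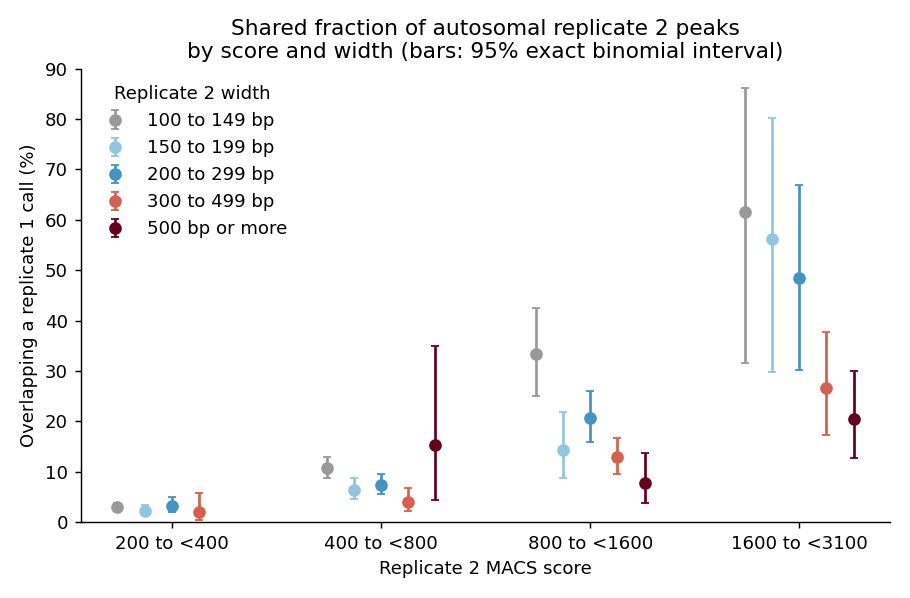
Percent of autosomal replicate 2 calls that overlapped a replicate 1 call (vertical) by range of replicate 2 score from 200 to 3100 (horizontal), with colours for the replicate 2 width; bars are 95% exact binomial intervals, and groups of under 10 calls are left out. In the ranges from 800 to 1600 and from 1600 to 3100 the calls of 500 bp or more, at 7.69% and 20.4%, lie lowest.

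Shared wide calls also had higher replicate 2 scores than unshared calls of like width. The medians were 540 and 241 at 150 to 200 bp, 819 and 399 at 200 to 300 bp, 1229 and 718 at 300 to 500 bp, and 3100 and 1421 from 500 bp upward. A score of 1000 or more was held by 218 of the 440 wide shared peaks (49.5%, 44.8 to 54.3%) and by 607 of the 5525 wide calls of replicate 2 alone (11.0%, 10.2 to 11.8%). Over all autosomal replicate 2 calls it was 0.851%.

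At the lower end of the set, the 5 regions with the lowest replicate 2 scores had replicate 1 scores from 78.2 to 95.4. The weakest replicate 2 call, chr15:21586207-21586364, scored 53.73 there and 95.4 in replicate 1. The next were chr1:73879543-73879731 with 130 in replicate 2 and 87.7 in replicate 1, and chr11:44704114-44704271 with 133 and 95.3. At chr12:102056959-102057109 the scores were 137 and 78.2, and at chr16:58463721-58463919 they were 143 and 78.7. Each of these 5 had a replicate 1 score above the 77.5 that was the median of that list.

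Regions next to the width minimum were named on each side of it. Just inside it, at 150 bp, chr3:29048829-29048978 scored 1646 in replicate 2 and 75.9 in replicate 1, chr9:63140532-63140681 scored 1619 and 90.1, and chr10:95077881-95078030 scored 821 and 80.5. Just outside, at 149 bp, chr1:184489188-184489336 scored 199 and 77.3, chr8:103482325-103482473 scored 485 and 119, and chr12:28424870-28425018 scored 190 and 126. All were picked by width and position from among ties. Other shared calls of 149 bp scored 3050.82 on chromosome 17 and 2350.13 on chromosome 14 in replicate 2. These lay above the 3 regions named inside the minimum, so no step in score at the minimum can be read from the named regions.

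Wide shared peaks were found on every autosome. The counts ran from 13 on chromosomes 16 and 19 to 32 on chromosome 2. Per 100 Mb of the span between the first and last replicate 2 call, chromosome 7 held the fewest, 13.4 (95% exact Poisson interval 8.17 to 20.7), and chromosome 13 the most, 26.5 (18.0 to 37.5), and these intervals overlapped. The share of wide calls that were shared ran from 4.80% (2.58 to 8.06%) on chromosome 16 to 10% (6.90 to 13.9%) on chromosome 13. A replicate 1 score of 200 or more was found on all autosomes but 6 and 9, in up to 4 regions each.

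**Figure D5:**
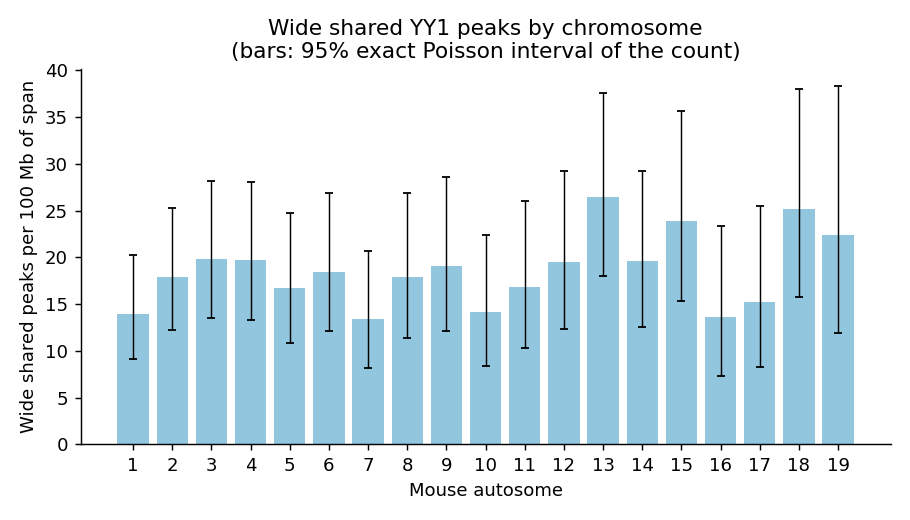
Wide shared peaks per 100 Mb of span (vertical) on each of the 19 autosomes (horizontal), with 95% exact Poisson intervals of the count. Values lie between 13.4 on chromosome 7 and 26.5 on chromosome 13, and all the intervals overlap one another.

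Along the chromosomes the regions were more common towards the high-coordinate end, as were wide calls in general. The last 20% of the span held 146 of the 440 (33.2%, 28.8 to 37.8%), 31.2% of all 5965 wide autosomal replicate 2 calls and 24.7% of all autosomal replicate 2 calls. Mouse autosomes are numbered from the centromere, so this is the end away from it. The share among the 440 regions was thus near that of wide calls in general.

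Wide shared peaks mostly lay far from one another. Such gaps depend on how many regions a set holds, and no set of like number was compared. The gap to the next one had a median of 1.65 Mb (quartiles 0.598 and 3.44 Mb), and 18 of the 440 had another within 100 kb. Within 10 kb there were 6, in 3 pairs. On chromosome 1 the pair chr1:73879169-73879487 and chr1:73879543-73879731 lay 55 bp apart, with low replicate 2 scores of 146 and 130 and replicate 1 scores of 58.3 and 87.7. On chromosome 12 chr12:107121157-107121500 and chr12:107121593-107121749 lay 92 bp apart and scored 1148 and 914 in replicate 2 and 95.7 and 111 in replicate 1. On chromosome 17 the region chr17:35007780-35007980, with 813 and 125, lay 49 bp from chr17:35008030-35008308, one of the strongest regions, with 3100 and 2302. These neighbours are separate calls in both lists.

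Other calls were about as common around the wide shared peaks as around wide calls of replicate 2 alone. At least 1 other replicate 2 call lay within 10 kb of 324 of the 440 (73.6%, 69.3 to 77.7%) and of 3994 of the 5525 (72.3%, 71.1 to 73.5%). Over all autosomal replicate 2 calls it was 67.0%, and for narrow shared peaks 64.9% (61.8 to 67.9%). A further replicate 1 call within 10 kb was found for 17 of the 440 (3.86%, 2.27 to 6.11%), against 2.88% of all autosomal replicate 2 calls and 3.44% (2.97 to 3.95%) of wide calls of replicate 2 alone.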

How the data were processed

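Each ChIP sample has 1 interval list. Per the file headers, the authors called peaks with MACS run in Galaxy, and the deposited score of each interval is that caller's value. Per the submitters' processing notes, coordinates are those of mm9. The aligner, the MACS version and settings and the use of the input in the calling are not stated in the sources used here. Starts were taken to count from 0, as in the BED convention, and 1 was added.

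Overlaps, shares with 95% Clopper-Pearson intervals, medians and rank correlations were computed with SciPy 1.17.1, NumPy 2.4.6 and pandas 2.3.3 under Python 3.11.15, with plots by matplotlib 3.10.9, and the overlap code was tested on simulated data. Where a region met several replicate 1 intervals, its partner was the one with the largest overlap. A neighbour within 10 kb was counted from edge to edge. The regions, the comparisons and the named-region rule were chosen with earlier results of these data known. Named were the 15 highest replicate 1 scores, the 10 widest, the 5 with the most replicate 1 intervals, the 5 lowest replicate 2 scores, 3 on each side of the width minimum, and the groups within 10 kb.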

Additional observations from a re-analysis of the deposited data

How the results depend on the processing

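Over 8 alternative settings, 54 of 82 recomputed values stayed within the 95% interval of the reported value, or within 1.5 times the count, and none changed direction. The median replicate 1 score of wide peaks stayed below that of narrow shared peaks in each. In the settings without the 77 tied regions and without the 40 high-scoring ones, however, the narrow set was left whole. Their ratios thus set a trimmed set against an untrimmed one, and leaving out the 40 could only lower the wide median. With a width minimum of 100 bp there were 701 regions, a median replicate 1 width of 89 bp, 12.6% of partners at 150 bp or more, 5.14% of regions with 2 or more replicate 1 calls, a rho of scores of 0.24, a shared fraction of 4.38% and midpoints 26.5 bp apart. With 200 bp the ratio of replicate 1 scores to narrow peaks was 0.853, the shared fraction 10.5% and the midpoint distance 55 bp. These changes follow from moving the minimum. Keeping the higher-scoring 50% of both lists, there were 234 regions, a median replicate 1 score of 100.7 (ratio 0.959, interval 0.918 to 1.05), a median width of 102 bp (ratio 1.89), 29.5% of wide partners, a rho of 0.56, a shared fraction of 4.35% and a median of 0 other replicate 2 calls within 10 kb instead of 1; fewer calls were left in both lists. Without the 77 regions tied at 3100 the median replicate 1 score was 76.4 (ratio 0.808), the width 92 bp (ratio 1.56), wide partners 9.64%, 2 or more calls 3.86% and rho 0.20. Without the 40 regions of replicate 1 score 200 or more, an alternative chosen after seeing the data, wide partners were 13% and rho 0.21. The interval of a median came from order statistics and that of rho from Fisher's transformation. That of a ratio was the interval of the wide median over a fixed narrow median. No paired analysis was possible because the labels give a single group of 2 numbered ChIP samples, and no result could be recomputed without a replicate, since each needs both lists. Read depth is unknown, so a region missing from replicate 1 cannot be called unbound there.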
